A study of Rattus norvegicus with 4 samples.

Results

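Collagen chain genes were examined in rat skeletal muscle: every gene whose symbol has the form Col, a type number, a and a chain number, found by matching each array probe's RefSeq accession to a rat symbol. The rule found 18 such genes, with 25 probes, among 26624 genes or unnamed accessions on the array. RefSeq's GRCr8 gene table holds 44 symbols of this form, and the other 26 chains were not analysed here. Of the 18, 14 were well above background on at least 2 of the 4 arrays and were tested, and 12 were well above background on all 4 arrays.

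The muscle came from male rats aged 15 weeks and gave 4 arrays of 1 colour. The SPORTS rat is a hyperactive mutant on a Wistar background, and 1 exercised and 1 sedentary SPORTS rat gave 1 array each. Wild-type (WT) Wistar rats, sedentary by the design text, gave 2 arrays. Which muscle was taken, how the rat was exercised and whether the WT arrays represent different animals are not stated in the labels. The p-values therefore measure only the spread between these arrays, which may be technical.

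Collagens are the main structural proteins of the extracellular matrix. Their chains wind around each other into trimers with a helical part made of repeats that start with glycine. The fibrillar types assemble into the strong fibres of tendon and of the sheaths around muscle fibres and fascicles. Type IV forms the sheet-like network of basement membranes, to which types XV and XVIII attach. The remaining types decorate fibrils, form fine microfibrils or anchoring fibrils, or span the cell membrane. In muscle, fibroblasts make most fibrillar collagen, and the tendon cells at the muscle's ends make collagen of the same types.

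RefSeq's promoter table (build GRCr8) held an entry for 9 of the 14 tested chains. Upstream sequence is shown for 4 chains whose levels differed in unlike ways between the arrays: Col1a2, which was lower on both SPORTS arrays, Col11a2, which had the lowest values against WT, Col7a1, the chain that rose, and Col4a1, whose main probe differed from WT by less than its standard error. Capitals mark exact matches, on either strand, to the TATA box motif TATAAA, to the motif known as the CCAAT box, or to the GC box motif GGGCGG. Neighbouring matches may overlap.
Col1a2, chr4:33518307-33518406, plus strand: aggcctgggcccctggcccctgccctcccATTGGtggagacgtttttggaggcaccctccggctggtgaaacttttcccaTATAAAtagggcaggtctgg
Col11a2, chr20:4817649-4817798, minus strand: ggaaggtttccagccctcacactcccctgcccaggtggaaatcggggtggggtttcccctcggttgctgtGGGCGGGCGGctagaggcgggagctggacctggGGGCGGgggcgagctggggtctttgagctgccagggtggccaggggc
Col7a1, chr8:118483214-118483363, plus strand: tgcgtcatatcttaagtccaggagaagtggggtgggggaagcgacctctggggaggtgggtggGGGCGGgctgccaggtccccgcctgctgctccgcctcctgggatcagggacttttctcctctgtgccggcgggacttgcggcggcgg
Col4a1, chr16:84885521-84885596, plus strand: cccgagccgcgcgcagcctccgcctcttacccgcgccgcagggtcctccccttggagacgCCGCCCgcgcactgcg

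The Col1a2 window runs from 250 to 151 bases before the annotated start, because the transcript in the table begins at its ATG. It holds 1 TATAAA, found in the same window of 5.43% of all promoters, and 1 CCAAT on the opposite strand, found in 14.5%. Those shares are taken at the same distance from each promoter's annotated start. As the Col1a2 entry begins at its ATG, they may not compare like positions. The Col11a2 and Col7a1 windows are the 150 bases before the start, and they hold 3 and 1 matches to GGGCGG, a GC box that 26.0% of promoters hold there. The Col4a1 window is the 76 bases that separate it from its neighbour Col4a2, and it holds 1 GGGCGG, found in 18.1%. Of the 9 chains, 7 had GGGCGG within 250 bases before the start, against 30.5% of all promoters, and 1 had TATAAA, against 12.9%. The chain with TATAAA was Col1a2, where bases are counted from the ATG. These matches describe letters in a window and are not shown to be binding sites.

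Levels below are log2 processed signals from which the 75th percentile of the same array was subtracted, so 1 unit is 2-fold and 0 is the 75th percentile of that array. They compare arrays for 1 chain and do not rank chains, since probes differ in brightness. A difference is called when its p-value, adjusted by the Benjamini-Hochberg method over 13326 genes tested, is under 0.05. Differences from WT for each SPORTS array come from a limma fit with 3 groups (n = 2 WT arrays and 1 SPORTS array), in which the spread comes from the WT pair alone. The lone SPORTS arrays are assumed to vary like that pair. A ± is the standard error of the fit.

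On the exercised SPORTS array, 9 of the 14 tested chains fell against WT, 1 rose and 4 did not pass the test. The chains that fell were Col1a1, Col1a2, Col2a1, Col3a1, Col5a1, Col11a2, Col18a1, Col6a2 and Col14a1, and the chain that rose was Col7a1. Over all genes tested, 53.3% were called in this comparison, 26.0% lower and 27.3% higher, so a call on this array is common by itself. The median difference was -1.30 over the 14 chains and 0.00298 over all genes. Of the 12 chains above background on all 4 arrays, 7 fell and 1 rose. With scaling by the array median, which moved the median of all genes to 0.23, the same counts of 9 lower and 1 higher were called, while calls over all genes became 5571 higher and 2505 lower.

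On the sedentary SPORTS array, 4 of the 14 chains fell and none rose: Col1a1, Col1a2, Col2a1 and Col11a2, all of them fibrillar. Over all genes, 6.27% were called in this comparison, 3.45% lower and 2.82% higher. The median difference was -0.06 over the 14 chains and -0.01 over all genes. Of the 12 chains above background on all 4 arrays, 2 fell. Col2a1 passed the filter through the WT arrays, where it was high, and Col11a2 was well above background on the sedentary array too but not on the exercised array. With no filter on dim genes the count was 0, with 18 chains tested, and the 4 adjusted p-values ranged from 0.0755 to 0.108. With normexp background correction 5 chains were called lower and 2 higher (Col14a1 and Col5a3), and with a variance trend 5 lower and 3 higher (Col3a1 as well). With only the genes above background on all 4 arrays, 3 were called lower (Col1a1, Col1a2 and Col18a1) and 1 higher (Col14a1). The absence of higher calls therefore depends on these settings.

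**Figure D1:**
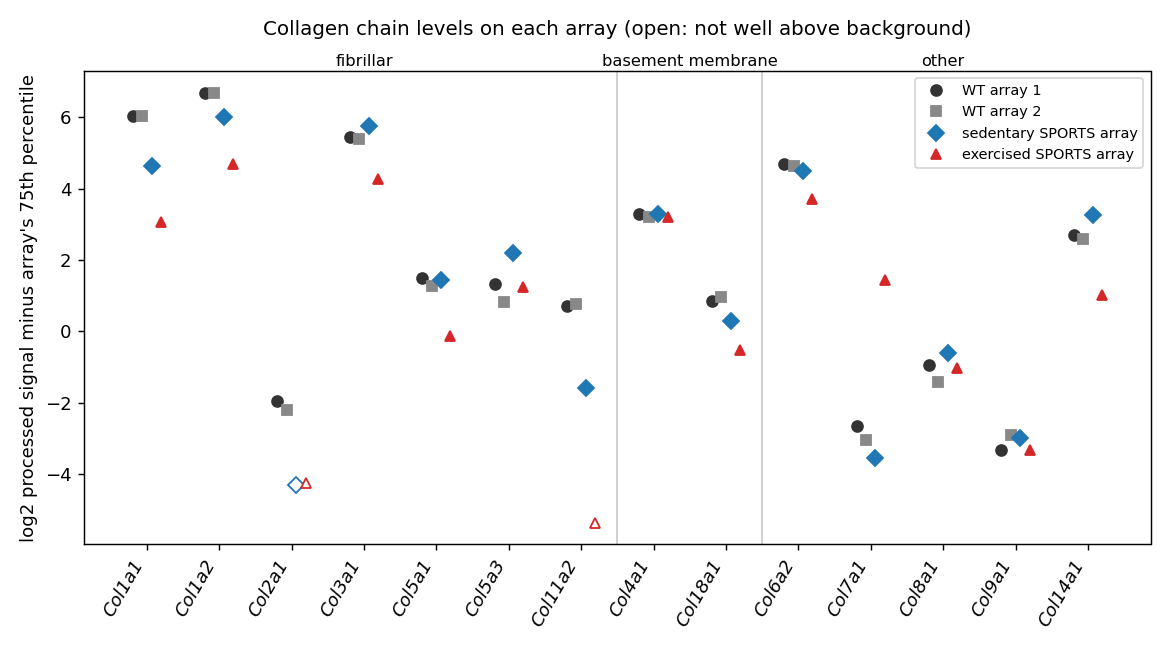
Level of each tested collagen chain (vertical axis, log2 units above the 75th percentile of the array) on the 4 arrays, with chains grouped by class along the horizontal axis and open symbols for values not well above background. The exercised SPORTS array lies below both WT arrays for 10 of the 14 chains and above both for Col7a1 alone.

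Type I collagen, the main fibre of tendon and muscle sheaths, is built from the chains Col1a1 and Col1a2. Col1a1 had levels of 6.02 and 6.03 on the WT arrays, 4.62 on the sedentary and 3.05 on the exercised SPORTS array. Both SPORTS arrays lay below both WT arrays, and the WT arrays differed by only 0.0095. Col1a1 fell by 1.41 ± 0.06 on the sedentary array (adjusted p = 0.0327, limma). It fell by 2.98 ± 0.06, or 7.86-fold, on the exercised array (adjusted p = 0.00424, limma). The second Col1a1 probe gave -1.52 and -3.04 for the same differences.

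Col1a2 followed the same order at a smaller size. Its levels were 6.68 and 6.69 on the WT arrays, 6.002 on the sedentary and 4.70 on the exercised array. It fell by 0.68 ± 0.06 on the sedentary array (adjusted p = 0.0457) and by 1.99 ± 0.06, or 3.96-fold, on the exercised array (adjusted p = 0.00431, limma). Col1a1 therefore changed more than its partner within each SPORTS array. Relative to the WT mean, the log2 ratio of Col1a1 to Col1a2 was -0.72 on the sedentary and -0.99 on the exercised array, with an SD of 0.0048 between the WT arrays.

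Col3a1 encodes the chain of type III collagen, which forms thin fibres alongside type I. Its levels were 5.45 and 5.39 on the WT arrays, 5.74 on the sedentary and 4.26 on the exercised array, so the SPORTS arrays lay on opposite sides of WT. It fell by 1.16 ± 0.07 on the exercised array (adjusted p = 0.00582, limma), and the sedentary difference of 0.32 ± 0.07 did not pass (adjusted p = 0.0892) except with a variance trend (0.0290). The log2 ratio of Col1a1 to Col3a1, relative to the WT mean, was nearly equal on the SPORTS arrays, at -1.73 on the sedentary and -1.82 on the exercised array, with an SD of 0.04 between the WT arrays. Ratios within an array do not depend on the scaling between arrays, and they show unequal change without saying which chain changed.

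Type V collagen is a minor component that starts and limits type I fibrils. Its chain Col5a1 had levels of 1.48 and 1.27 on the WT arrays, 1.44 on the sedentary and -0.14 on the exercised array. The sedentary value lay between the WT values, with a difference of 0.07 ± 0.13, and Col5a1 fell by 1.51 ± 0.13 on the exercised array (adjusted p = 0.00919, limma). Col5a3, a further type V chain, did not follow it. Col5a3 had levels of 1.33 and 0.82 on the WT arrays, 2.19 on the sedentary and 1.25 on the exercised array. The exercised value lay between the WT values, and the sedentary value was 2.17-fold above their mean without passing the test (adjusted p = 0.107, limma). It passed as higher with normexp (0.0438) and with a variance trend (0.0486).

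Col2a1 and Col11a2, chains of the type II and type XI fibrils best known from cartilage, were the fibrillar chains at or below background on a SPORTS array. Col11a2 had levels of 0.70 and 0.76 on the WT arrays, -1.58 on the sedentary array and a value not well above background on the exercised array. It fell by 2.31 ± 0.07 on the sedentary array (adjusted p = 0.0319) and was at least 17.9-fold lower than WT on the exercised array (adjusted p = 0.00424, limma). Such a bound divides the mean of the brighter arrays by whichever is higher on the dim array, the probe itself or the faintest signal still well above background there. A p-value printed beside a bound, here and below, comes from the fit to the measured values, dim ones included, and does not test the bound. The second Col11a2 probe showed the same order, with a difference of -1.38 on the sedentary array and no signal well above background on the exercised array.

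Col2a1 had levels of -1.96 and -2.21 on the WT arrays and was not well above background on either SPORTS array. It was tested only because it was high on the WT arrays, so its calls as lower are no separate support. It was at least 3.26-fold lower on the sedentary array (adjusted p = 0.0383) and at least 2.55-fold lower on the exercised array (adjusted p = 0.00677, limma). The cartilage markers with a named probe, Acan, Matn1 and Hapln1, were not well above background on any of the 4 arrays, WT included.

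Among basement membrane chains, Col4a1 and Col18a1 were tested. Col4a1, which pairs with Col4a2 in the network common to most basement membranes, had levels of 3.29 and 3.21 on the WT arrays, 3.29 on the sedentary and 3.20 on the exercised array. Its differences were 0.04 ± 0.08 and -0.05 ± 0.08, both smaller than the standard error. The second, dimmer Col4a1 probe disagreed, with levels of -1.94 and -1.99 on the WT arrays, -2.13 on the sedentary and -3.31 on the exercised array, a difference of -1.34 on the last. With the mean of both probes, Col4a1 differed by -0.70 on the exercised array (adjusted p = 0.0123, limma), so its stability rests on the choice of probe.

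Col18a1 encodes the chain whose end piece is endostatin. Its levels were 0.85 and 0.96 on the WT arrays, 0.28 on the sedentary and -0.54 on the exercised array, with both SPORTS arrays below both WT arrays. It fell by 1.44 ± 0.09 on the exercised array (adjusted p = 0.00592, limma), and the sedentary difference of -0.62 ± 0.09 just missed the threshold (adjusted p = 0.0583). Col18a1 passed on the sedentary array under 3 alternatives: normexp background correction (adjusted p = 0.0301), genes above background on all 4 arrays (0.0319) and a variance trend (0.0204).

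**Figure D2:**
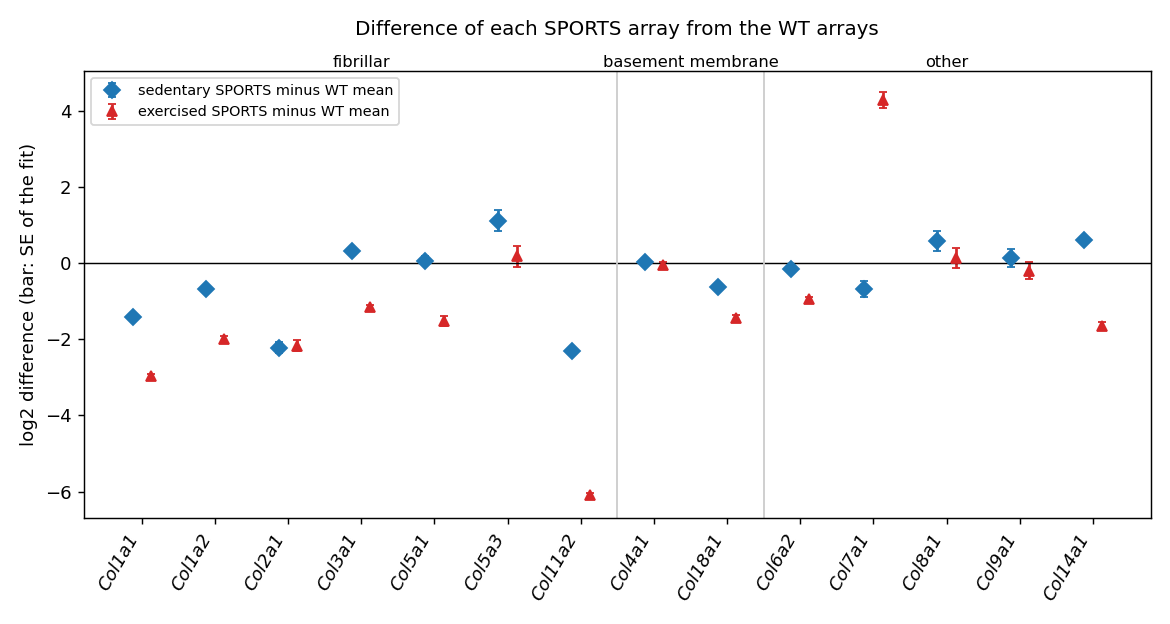
Difference of each SPORTS array from the mean of the WT arrays (vertical axis, log2; bars are the standard error of the limma fit) for the 14 tested chains in their classes. The lowest value is Col11a2 on the exercised array, which was not well above background there, and the highest is Col7a1 on the exercised array, at 4.29.

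The other chains went different ways. Col7a1 encodes the anchoring fibril collagen best known from the junction of epidermis and dermis. It had levels of -2.66 and -3.05 on the WT arrays, -3.54 on the sedentary and 1.44 on the exercised array, and was well above background on all 4. It rose by 4.29 ± 0.21, or 19.6-fold, on the exercised array (adjusted p = 0.00508, limma). The sedentary difference was -0.69 ± 0.21 and did not pass (adjusted p = 0.142). The gene has 1 probe here, so no further probe checks its rise.

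Col14a1 belongs to the collagens that coat type I fibrils. Its levels were 2.71 and 2.60 on the WT arrays, 3.26 on the sedentary and 1.02 on the exercised array, on opposite sides of WT. It fell by 1.64 ± 0.08 on the exercised array (adjusted p = 0.00526, limma), and the sedentary difference of 0.61 ± 0.08 just missed the threshold (adjusted p = 0.0590). Col14a1 passed as higher on the sedentary array under the same 3 alternatives as Col18a1: normexp (adjusted p = 0.0201, limma), genes above background on all 4 arrays (0.0324) and a variance trend (0.0184). Its second probe gave 0.74 on the sedentary and -1.47 on the exercised array.

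Col6a2, a chain of the type VI microfibrils that surround muscle fibres and whose loss causes congenital muscular dystrophy in people, had levels of 4.68 and 4.62 on the WT arrays, 4.50 on the sedentary and 3.70 on the exercised array. It fell by 0.95 ± 0.07 on the exercised array (adjusted p = 0.00727, limma), and the sedentary difference was -0.15 ± 0.07 (adjusted p = 0.227). Col8a1, a network-forming chain of vessel walls, and Col9a1, which coats type II fibrils, did not pass in either comparison. Col8a1 had levels of -0.94 and -1.42 on the WT arrays, -0.61 on the sedentary and -1.04 on the exercised array. Col9a1 had levels of -3.33 and -2.91 on the WT arrays, -2.99 and -3.32 on the sedentary and exercised arrays, and its other 2 probes were not well above background on any array. The exercised value lay within the WT range for both chains.

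The 4 chains that were not tested, Col4a4, Col9a2, Col13a1 and Col23a1, were not well above background on any array. Col4a4 belongs to the basement membrane of the kidney filter, Col9a2 to cartilage, and Col13a1 and Col23a1 span the cell membrane, the former at the neuromuscular junction. No difference is given for them.

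By class, 6 of 7 fibrillar chains fell on the exercised array, with a median difference of -1.99, or -1.51 with Col2a1 and Col11a2 at their bounds, and 4 of 7 fell on the sedentary array, with a median of -0.68. That sedentary median was 0.07 over the fibrillar chains above background on all 4 arrays. The counts include Col2a1, which passed the filter only through the WT arrays, where it was high. They also include Col11a2, which was not well above background on the exercised array. Without this pair, the fibrillar chains called lower were Col1a1, Col1a2, Col3a1 and Col5a1 on the exercised array. On the sedentary array they were Col1a1 and Col1a2. Of 2 basement membrane chains, 1 fell on the exercised and none on the sedentary array, with medians of -0.75 and -0.29. Of 5 other chains, 2 fell and 1 rose on the exercised array and none passed on the sedentary array, with medians of -0.20 and 0.13. Over all genes, 53.3% were called on the exercised array, 26.0% lower and 27.3% higher. On the sedentary array 6.27% were called, 3.45% lower. The class sizes are small and no test between the classes was made.

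**Figure D3:**
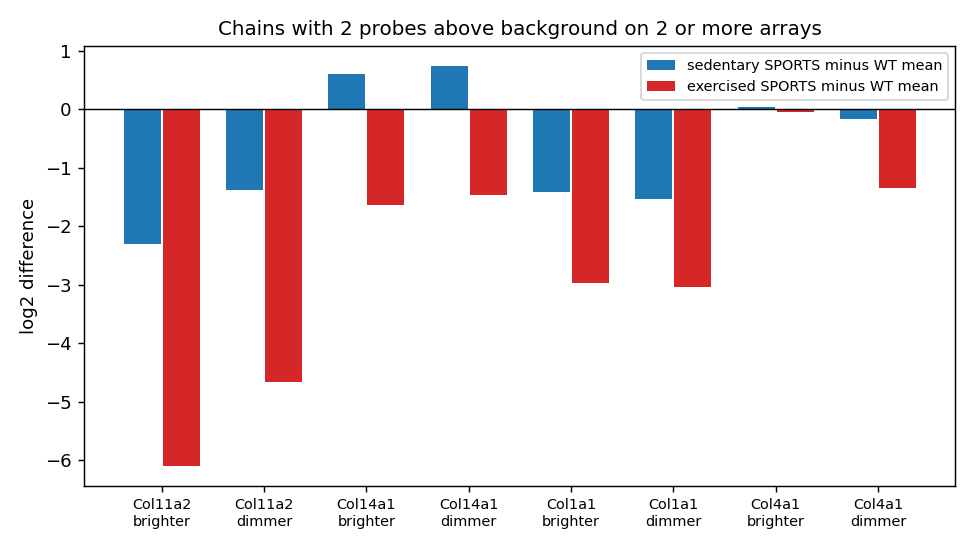
Difference of each SPORTS array from the WT mean (vertical axis, log2) for the brighter and the dimmer probe of the 4 chains with 2 usable probes. The probes of Col1a1, Col11a2 and Col14a1 share direction on both SPORTS arrays. Those of Col4a1 differ in size on the exercised array, at -0.05 and -1.34, and in direction on the sedentary array, at 0.04 and -0.16.

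Set together against WT as 2 arrays against 2, the SPORTS arrays gave no called chain and no called gene (0.0% of all genes, limma). At an unadjusted p under 0.05, 3 of the 14 chains remained, Col1a1, Col2a1 and Col18a1, where 7.37% of all genes did. The differences of Col1a1 and Col18a1 were -2.19 ± 0.61 and -1.03 ± 0.34, with adjusted p-values of 0.632 and 0.660. Col2a1, dim on both SPORTS arrays, has only a bound, at least 2.88-fold lower, with an adjusted p of 0.299. It passed the filter only through the WT arrays, where it was high, so its place among the 3 is no separate support. The spread in this fit holds the difference between the exercised and the sedentary array, at least 2-fold in 7 of the 14 chains. Leaving out either SPORTS array sets the WT pair against 1 array. That repeats the comparison of each SPORTS array with WT given above and is no separate check.

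Both SPORTS arrays lay below both WT arrays for 6 chains, where 22.3% of all genes did: Col1a1, Col1a2, Col2a1, Col11a2, Col18a1 and Col6a2. No chain had both SPORTS arrays above both WT arrays (21.4% of all genes). Taken singly, the exercised array lay below both WT arrays for 10 chains and above both for 1, where 45.7% and 46.5% of all genes did. The sedentary array lay below both for 7 and above both for 4, where 45.1% and 42.1% did. The arrays lay on opposite sides of WT for Col3a1 and Col14a1, lower on the exercised array (18.2% of all genes), and for Col7a1, higher there (19.4%). The WT arrays themselves were at least 2-fold apart for none of the 14 chains and for 1.13% of all genes. For Col1a1, Col2a1 and Col11a2 the gap was at least 2-fold, where 1.28% of all genes had such a gap on the lower side and 0.645% on the higher side. The Col2a1 values on both SPORTS arrays and the Col11a2 value on the exercised array were not well above background. Col2a1 was tested only because it was high on the WT arrays.

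Between the SPORTS arrays, each condition has 1 array and the difference has no replicate check. At least 2-fold lower on the exercised array were 6 of the 14 chains, where 12.8% of all genes were, and at least 2-fold higher was 1, where 9.11% were, so 7 differed either way against 21.9% of all genes. The 6 were Col1a1 (2.97-fold lower), Col1a2 (2.47-fold), Col3a1 (2.79-fold), Col5a1 (2.99-fold), Col14a1 (4.75-fold) and Col11a2 (at least 3.62-fold). Col7a1 was 31.5-fold higher. Col2a1 has no order between these arrays, being dim on both.

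Collagen synthesis needs enzymes that hydroxylate, fold and escort the chains inside the cell. For these lists too, calls over all genes are the measure: 53.3% on the exercised array (26.0% lower, 27.3% higher) and 6.27% on the sedentary array. Of 16 synthesis genes tested, 10 fell and 2 rose on the exercised array, with a median difference of -0.60, and 2 fell on the sedentary array. The prolyl 3-hydroxylase genes P3h2 and P3h3 were the 2 that fell on both. P3h2 fell by 2.04 ± 0.08 on the sedentary array (adjusted p = 0.0319, limma) and was at least 4.46-fold lower on the exercised array. P3h3 fell by 0.77 ± 0.06 and by 1.84 ± 0.06. The folding factor gene Fkbp10 was at least 3.43-fold lower on the exercised array, and P3h4, which acts with lysyl hydroxylase, fell by 1.32 ± 0.07.

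The synthesis genes did not all change alike. Serpinh1, encoding the collagen chaperone Hsp47, fell by 0.56 ± 0.12 on the exercised array (adjusted p = 0.0460, limma), less than any fibrillar chain that fell. Sparc, a collagen-binding matrix protein, fell by 1.23 ± 0.06. P4ha1, the catalytic subunit of prolyl 4-hydroxylase, went the opposite way and rose by 1.22 ± 0.06 (adjusted p = 0.00523, limma). P4ha2, a further form of this subunit named here to complete the count, rose by 0.29 ± 0.07 with an adjusted p just under the threshold (0.04999, limma).

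Trimming and crosslinking take place outside the cell. All 6 genes tested fell on the exercised array, where 26.0% of all genes fell, and none passed on the sedentary array. Their median difference on the exercised array was -1.60, or -1.46 with Loxl3, which was dim there, at its bound. Bmp1, which cuts off the C-terminal propeptide, fell by 1.67 ± 0.16, and the lysyl oxidase-like genes Loxl1 and Loxl2 fell by 1.52 ± 0.16 and 1.71 ± 0.16. Loxl3 was at least 2.08-fold lower.

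The breakdown list holds genes that break collagen down and the Timp genes, which inhibit proteases. Its counts and median mix both kinds. Of 8 breakdown genes tested, 6 fell on the exercised array, the inhibitor genes Timp3 and Timp4 among them. Over all genes 26.0% fell there. The median difference of the 8 was -1.59, or -1.05 with Mrc2, which was dim there, at its bound. The gelatinase gene Mmp2 fell by 1.68 ± 0.06, the collagen-cleaving protease gene Ctsk by 2.12 ± 0.06 and the protease inhibitor gene Timp3 by 1.84 ± 0.06, and the collagen uptake receptor gene Mrc2 was at least 1.27-fold lower. Timp1 differed by -0.60 ± 0.30 and did not pass (adjusted p = 0.202, limma). Of these genes on the sedentary array, Timp3 fell by 0.83 ± 0.06 and Mmp14, a membrane-bound collagenase named here to complete the count, rose by 0.76 ± 0.08.

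Among collagen receptors, 3 of 4 fell and 1 rose on the exercised array. Itga10, the integrin subunit that binds type II collagen, was at least 4.33-fold lower there, and it fell by 2.14 ± 0.07 on the sedentary array (adjusted p = 0.0319, limma). Itga1 and Ddr2 fell by 0.59 ± 0.10 and 0.65 ± 0.09, and the shared integrin subunit gene Itgb1 rose by 0.33 ± 0.07. Of 11 regulator genes, 6 fell and 1 rose, where 26.0% of all genes fell and 27.3% rose. Tgfb1, Tgfb2 and Tgfb3, the last pair named to complete the count, fell with adjusted p-values just under the threshold. The growth factor gene Ccn2, a target of TGF-beta signalling, fell by 2.89 ± 0.09, while its level on the sedentary array, 2.33, lay above both WT arrays (2.10 and 1.97). Tgfb1 was at least 1.77-fold lower and Tgfbr2 fell by 0.78 ± 0.07. Smad2 passed the test, but it was well above background on only 2 arrays and not on the exercised one. Smad4 was the regulator that rose, by 0.51 ± 0.07.

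The non-collagen basement membrane genes had smaller differences. Of 5 tested, 3 fell on the exercised array, where 53.3% of all genes were called and 26.0% fell, and the median difference of the 5 was -0.38. The 3 were the nidogen gene Nid2 by 1.16 ± 0.13 and the laminin genes Lamb2 by 0.68 ± 0.06 and Lama5 by 0.38 ± 0.07. A second, dimmer Nid2 probe went the opposite way, with a difference of 4.69 on the exercised array. That probe was well above background on the exercised array alone, at -1.15 against -5.88 and -5.79 on the WT arrays. The fall of Nid2 therefore rests on the choice of probe. Agrn differed by -0.29 ± 0.12 and did not pass, and none of the 5 passed on the sedentary array.

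**Figure D4:**
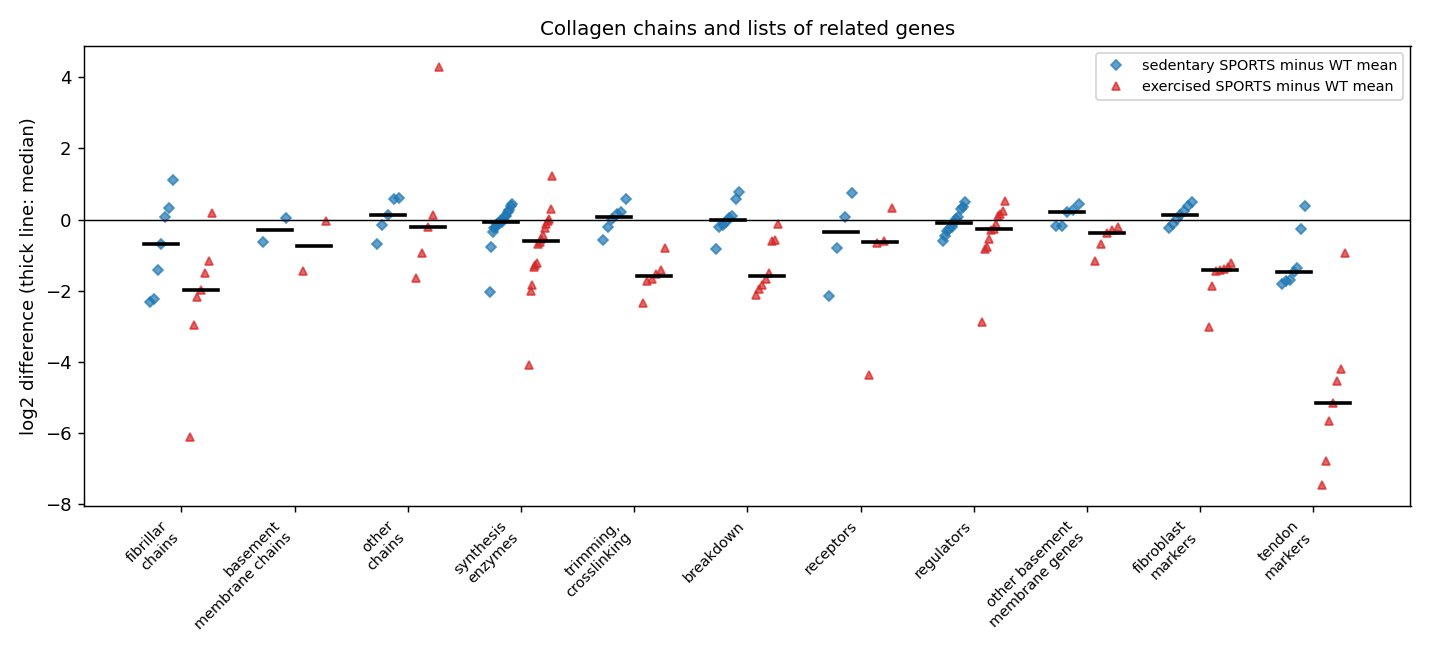
Differences from the WT mean (vertical axis, log2) of the tested genes in each collagen class, each list of related genes and the fibroblast and tendon marker lists, with the median as a thick line. On the exercised array the tendon markers have a median of -5.16 as plotted, or -4.21 with the 5 markers that were not well above background there set at their bounds, and the fibroblast markers a median of -1.41.

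Markers of fibroblasts and tendon cells were lower on the exercised array. Most collagen chains were lower there too, while Col7a1 rose and Col4a1, Col5a3, Col8a1 and Col9a1 did not pass. Of 7 fibroblast markers tested, all fell there and none passed on the sedentary array, where 26.0% of all genes fell on the former and 6.27% were called on the latter. Their summed level, as a multiple of the 75th percentile, reached 158 and 153 in WT muscle, 148 in sedentary and 58.8 in exercised SPORTS muscle. Sums here and below weigh the brightest probes most, in this list those of Gsn and Dcn. The proteoglycan genes Lum and Dcn fell by 3.01 ± 0.16 and 1.43 ± 0.10. Pi16 fell by 1.87 ± 0.16, and Fap fell by 1.41 ± 0.15.

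Tendon markers moved on both SPORTS arrays. All 7 tested fell on the exercised and 4 on the sedentary array, against 26.0% and 3.45% of all genes. They summed to 96.4 and 89.2 times the 75th percentile in WT muscle, to 48.3 in sedentary and to 12.2 in exercised SPORTS muscle. Fmod weighs most in the WT sums. Its levels were 5.99 and 5.87 on the WT arrays, 4.22 on the sedentary and 1.72 on the exercised array. Chad was at least 62.9-fold, Comp at least 50.3-fold, Tnmd at least 24.1-fold and Kera at least 13.9-fold lower on the exercised array, where none of them was well above background. On the sedentary array Chad fell by 1.72 ± 0.09, Tnmd by 1.46 ± 0.06, Fmod by 1.71 ± 0.09 and Cilp2 by 1.80 ± 0.12, the last pair named to complete the count. Scx, the tendon transcription factor, fell by 0.95 ± 0.09 on the exercised array, and its sedentary level of 4.47 lay above both WT arrays. The part of these markers in the collagen differences was not tested. In bulk muscle, fewer cells of a type and less RNA per cell cannot be told apart.

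Other cell types gave mixed values. The measure for calls here is again the share over all genes: 26.0% lower and 27.3% higher on the exercised array. On the sedentary array that share was 3.45% lower and 2.82% higher. Summed levels were 10.8 and 11.1 on the WT arrays, 12.8 on the sedentary and 10.9 on the exercised array for 5 endothelial markers. Of these, Cdh5 fell by 2.09 ± 0.12 and Tie1 fell by 0.36 ± 0.08 on the exercised array, and the other 3 did not pass. The 6 smooth muscle and pericyte markers summed to 19.3 and 20.2, then 19.0 and 18.1. On the exercised array Acta2 and Tagln rose by 0.80 ± 0.06 and 0.60 ± 0.06, Cspg4 fell by 1.27 ± 0.07, and on the sedentary array Acta2 rose by 0.70 ± 0.06. For 4 macrophage markers the sums were 2.30 and 1.56, then 3.94 and 0.610, and all 4 fell on the exercised array, where 2 were not well above background. For 4 Schwann cell markers they were 9.42 and 8.49, then 14.4 and 5.25, and Pmp22 fell by 1.11 ± 0.08 on the exercised array. For 2 adipocyte markers they were 8.90 and 10.2, then 8.27 and 7.80. Adipoq, the fat cell hormone gene, fell by 2.97 ± 0.36 on the exercised array (adjusted p = 0.0156, limma), and Fabp4 did not pass. For 3 satellite cell markers they were 1.34 on each WT array, then 1.31 and 1.65. Cdh15 rose by 1.65 ± 0.06 on the exercised array, where Vcam1 and Myf5 fell by 0.89 ± 0.06 and 0.58 ± 0.06, and Cdh15 fell by 1.006 ± 0.06 on the sedentary array. For 4 muscle fibre markers they were 1134 and 1129, then 952 and 1336, with Acta1 and Ckm rising by 0.33 ± 0.07 and 0.48 ± 0.08 on the exercised array. These genes are named to complete the counts, and their part in the collagen differences was not tested. The exercised array also stood apart in fibre type genes: the IIb myosin gene Myh4 had a level of 8.63 there, against 1.03 and 1.41 on the WT and -2.56 on the sedentary array, and the slow light chain gene Myl2 had 3.80 there, against 7.91 and 7.83 on the WT and 7.80 on the sedentary array. The sedentary array also differed from WT in some fibre type genes. Myh1 had a level of 1.43 there, against 5.17 and 4.29 on the WT and 7.92 on the exercised array. Tnni1 was near WT on the sedentary array, at 8.38 against 8.45 and 8.38, as Myl2 was. Without a named muscle, sampling site, genotype and exercise cannot be told apart.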

How the data were processed

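Per the labels' protocols, muscle RNA was labelled with Cy3 and hybridised to Agilent arrays. Agilent Feature Extraction 10.7.1.1 read the scans, per the submitters' processing notes. It wrote the processed signal, an intensity, per the file headers; the correction steps inside it are not given in the sources used here. The authors' deposited table gives log2 values for these arrays, centred on each probe's median. Differences between its columns correlated with those computed here at r = 1, with an offset of at most 0.0032. Its column medians were 0.02, -0.02, 0.17 and -0.15 for WT arrays 1 and 2, the exercised and the sedentary SPORTS array.

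Control spots and outlier spots were left out (352 of 30367 probes dropped, none of them collagen), spots of a probe were averaged, and log2 signals were set to the 75th percentile over the probes used. The median processed signal was 207, 204, 138 and 212 in the same array order, and 46.0% to 50.3% of probes were well above background. No spot was saturated, and the number of arrays limits the precision. All 4 arrays shared 1 slide. RefSeq accessions named 59.4% of the probes. The probe with the highest mean stood for a gene, and genes well above background on at least 2 arrays were tested (13326, of which 8477 have a symbol). The fits used limma 3.58.1 in R 4.3.3, with 2 residual degrees of freedom for 2 arrays against 2 and 1 for the 3 groups, and were tested on simulated data. Alternatives were scaling by the median, quantile normalization, normexp background correction (offset 50, on the deposited median signal and background intensity), the authors' table, other filters and floors on dim values, mean probes, a variance trend and leaving out each array. The members and lists were chosen with earlier results of these data known. All collagen chains are named; of each list of related genes, up to 4 with the largest differences on the exercised array, and Serpinh1, P4ha1, Lox, Sparc, Mmp2 and Timp1 where probes were named (Lox had none).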

Additional observations from a re-analysis of the deposited data

Results flagged for a closer look

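The exercised and the sedentary SPORTS array lay on opposite sides of both WT arrays for 3 of the 14 chains. The log2 difference between them was -1.48 for Col3a1, -2.25 for Col14a1 and 4.98 for Col7a1. Over all genes tested, 18.2% had the exercised array below and the sedentary array above both WT arrays, and 19.4% the reverse, so such opposition is common on these arrays. With 1 array per condition and shared WT arrays, the difference was not tested.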

How the results depend on the processing

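Across the 9 alternatives that kept all arrays, 8 to 11 chains were called on the exercised array. The chains at least 2-fold apart between the SPORTS arrays numbered 6 to 8 over the 8 alternatives run for them. On the sedentary array the same 4 chains were called lower except with normexp (7 called, 2 of them higher), no filter (0), a variance trend (8, 3 of them higher) and genes above background on all 4 arrays (4, of which Col14a1 was higher and Col18a1 lower in place of Col2a1 and Col11a2). For SPORTS against WT, leaving out an array gave 0 to 10 called chains. The 3-group fit has no residual degrees of freedom without a WT array, so its calls were not run there. No paired analysis was possible because the labels pair no SPORTS array with a WT array.

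The fibrillar median on the exercised array, -1.99, became -1.76 with median scaling, -1.95 with quantile normalization, -1.45 with normexp, -1.99 with the authors' table, and -1.51 both with genes above background on all 4 arrays and with dim values at a floor. On the sedentary array, -0.68, it became -0.65, -0.69, -0.73 and -0.69 in that order and turned to 0.0657 with genes above background on all 4 arrays, which drops Col2a1 and Col11a2. The basement membrane median on the exercised array, -0.75, became -0.52 with median scaling, -0.83 with quantile normalization, -0.66 with normexp, -0.0499 with no filter or with type IV chains alone, and -1.07 with mean probes. On the sedentary array, -0.29, it became -0.26, -0.33, -0.28 with no filter, -0.34 with mean probes and 0.0392 with type IV chains alone. The median of other chains on the exercised array, -0.20, became 0.0262 with median scaling, 0.0108 with quantile normalization, 0.0461 with no filter, -0.58 with Col18a1 added and -0.41 to -0.11 without a WT array. On the sedentary array, 0.13, it became -0.0229 with normexp, -0.0101 with Col18a1 added and -0.0749 to 0.33 without a WT array.

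Single chains changed sign only where their difference was small or rested on 1 array. On the exercised array Col4a1 gave 0.18 and Col9a1 0.0262 with median scaling, and Col9a1 0.0108 with quantile normalization. On the sedentary array Col4a1 gave -0.0098 with quantile normalization and -0.0627 with mean probes, and Col9a1 -0.0229 with normexp. For SPORTS against WT, median scaling gave 0.12 for Col4a1 and 0.0949 for Col9a1, and quantile normalization 0.0876 for Col9a1. Leaving out each array in turn gave -0.0499 to 0.0392 for Col4a1, -0.24 to 0.17 for Col9a1, -1.64 to 0.61 for Col14a1, -1.16 to 0.32 for Col3a1, -1.51 to 0.0657 for Col5a1 and -0.69 to 4.29 for Col7a1. Without a SPORTS array, these values are the differences of the other SPORTS array from WT given above. The cause of these shifts was not tested except where the alternative's own construction, fewer genes or arrays, shows it. Dim signal limits Col2a1 and Col11a2 to bounds on the arrays named above.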
